A study of Mus musculus with 9 samples.

Results

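The bone morphogenetic proteins (BMPs) and the secreted proteins that bind them were followed through cells sorted from mouse somites. The genes were 4 ligands (Bmp2, Bmp4, Bmp5 and Bmp7) and 6 extracellular antagonists (Nog, Chrd, Chrdl1, Grem1, Fst and Bmper), chosen by name, and every probe set that the array annotation gave to one of them alone was read. That made 18 probe sets of the 45037 tested, and 10 genes of 18193. Transcripts were measured on 9 Affymetrix arrays of hypaxial interlimb somite cells at embryonic day 9.5, with 3 arrays in each of 3 groups.

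The first group held GFP+ cells of Pax3PAX3-FKHR/GFP embryos, called PAX3-FKHR/GFP here, in which 1 Pax3 allele produced PAX3-FKHR and the other produced GFP. PAX3-FKHR joins the DNA binding part of the dermomyotomal transcription factor PAX3 to the activation domain of the forkhead factor FKHR (FOXO1), and these embryos kept no intact Pax3 allele. The second group held GFP+ cells of Pax3GFP/+ embryos (GFP/+), with 1 intact Pax3 allele. The third group held GFP- cells sorted from the same region, whose Pax3 genotype is not in the labels. By the study's methods the fusion came from a floxed PAX3-FKHR-IRESnlacZ allele in the Pax3 locus, recombined by a PGK-Cre transgene that acts throughout the embryo, and the Pax3 lines were kept on a mixed C57 BL6/DBA2 background. The fusion was therefore made wherever the Pax3 locus was active and not in the somite alone, and GFP+ cells could include neural crest and cells that retained GFP. Whether GFP/+ embryos also carried the Cre transgene is not given in the sources used here. Each array was made from tissue pooled over embryos of 1 genotype. The methods call the 3 arrays of a group biological replicates, and whether they came from separate dissections is not given in the sources used here, so that the p-values measure the spread between these arrays. The treatment protocol in the labels mentions forelimb buds, whereas the titles and tissue give interlimb somites, and the samples were taken as somites.

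BMP ligands are dimers of the TGF-beta superfamily that bind type I and type II receptor kinases, which phosphorylate SMAD1, SMAD5 and SMAD9 to switch on genes such as those of the Id and Msx families. Antagonists bind the ligands outside the cell and hold them off the receptors. BMPs from the lateral mesoderm, the surface ectoderm and the dorsal neural tube are known to hold back muscle differentiation in the somite, and noggin is known for opposing this.

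Array medians ran from 4.63 to 4.68 on the log2 scale, and within a group no 2 arrays correlated at less than 0.9962 across probe sets. Between PAX3-FKHR/GFP and GFP/+ arrays the correlation reached 0.9961, so these groups were hardly tighter within than between. GFP- arrays correlated with those of other groups at 0.989 at most. Pax3 itself, which has no intact allele in the fusion embryos, averaged 8.29 on the log2 scale in PAX3-FKHR/GFP, 9.20 in GFP/+ and 4.50 in GFP- cells. Whether its probes also read the fusion transcript was not tested. Of 10 dermomyotome and myogenic progenitor markers, 9 were higher in GFP/+ than in GFP- cells and 0 were lower by limma (9 and 0 at an unadjusted p under 0.05, 8 and 0 by the local pooled error test). Pax3 was 1 of the 9, and its rise follows from sorting on GFP made from the Pax3 locus. Markers of neural crest and sclerotome were higher as well, as given below, so the count does not set dermomyotome cells apart from these. Values are RMA expression values in log2 units, the figure behind ± is the standard error of the difference, and folds follow from these differences. A probe set was called when its adjusted p in limma was under 0.05 and its difference in either direction reached 0.5 in log2 units (1.41-fold). Levels are compared only within a probe set, since different probes bind with different strength.

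With PAX3-FKHR, 3 of the 10 genes were called higher: the ligand Bmp5 and the antagonists Chrdl1 and Grem1. Only Chrdl1 kept the call of its brightest probe set in each omission of 1 array. Those of Bmp5 and Grem1 were each lost in 5 of the 6 omissions. In probe sets, 5 of 18 were higher and 0 lower in PAX3-FKHR/GFP cells, set against GFP/+ cells. By the same limma call 0.884% of all probe sets were higher and 0.473% lower. At an unadjusted p under 0.05 in limma, 11 of the 18 were higher and 2 lower, and by the local pooled error test 4 and 0. The latter test called 719 of the 45037 probe sets in either direction. Shares of all probe sets at an unadjusted p were not counted, here or for the lists below. By the brightest probe set of each gene 1 of 4 ligands and 2 of 6 antagonists were higher, where 1.31% of all genes were higher and 0.715% lower. The local pooled error test called 0 ligands and 2 antagonists higher by these probe sets. The groups did not overlap in 12 of the 18 probe sets, against 13.1% of all probe sets. The median log2 difference was 0.27 over the 18 probe sets and -0.00 over all probe sets. The share of the 18 that was higher lay above the share of all probe sets, but the 18 read only 10 genes, which were picked with earlier results known, and probe sets of 1 gene are not independent.

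Between the GFP+ and GFP- cells of the second comparison the called ligands were lower and the called antagonists higher, while most antagonists were not called. In GFP/+ cells 3 of 4 ligands (Bmp4, Bmp7 and Bmp2) were lower than in GFP- cells and 0 were higher by limma. At an unadjusted p under 0.05 and by the local pooled error test the counts of ligands were the same. Of 6 antagonists 2 (Fst and Grem1) were higher and 0 were lower by limma. At an unadjusted p under 0.05, 3 were higher (Chrdl1 as well) and 1 was lower (Bmper). The local pooled error test gave 2 and 0. Of the 4 antagonists not called, Chrdl1 (0.28) and Nog (0.15) lay higher and Chrd (-0.20) and Bmper (-0.29) lower in log2 difference. The ligand Bmp5 lay at -0.10, and the call of Grem1 was lost without any 1 of 4 arrays. Over the 18 probe sets 3 were higher and 4 were lower, where 1.42% and 3.24% of all probe sets were. Of all genes, by their brightest probe set, 1.92% were higher and 5.05% lower. The groups did not overlap in 10 of 18 probe sets, against 23.0% of all. The median log2 difference was -0.48 over the 8 probe sets of ligands, 0.15 over the 10 of antagonists and 0.02 over all probe sets.

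PAX3-FKHR/GFP against GFP- cells gave 6 probe sets higher and 5 lower of 18, where 1.99% of all probe sets were higher and 3.36% lower. The groups did not overlap in 15 of 18, against 21.5% of all. The 3 comparisons share arrays in pairs, so their calls are not independent of one another, and the values of each are given side by side for every gene.

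**Figure D1:**
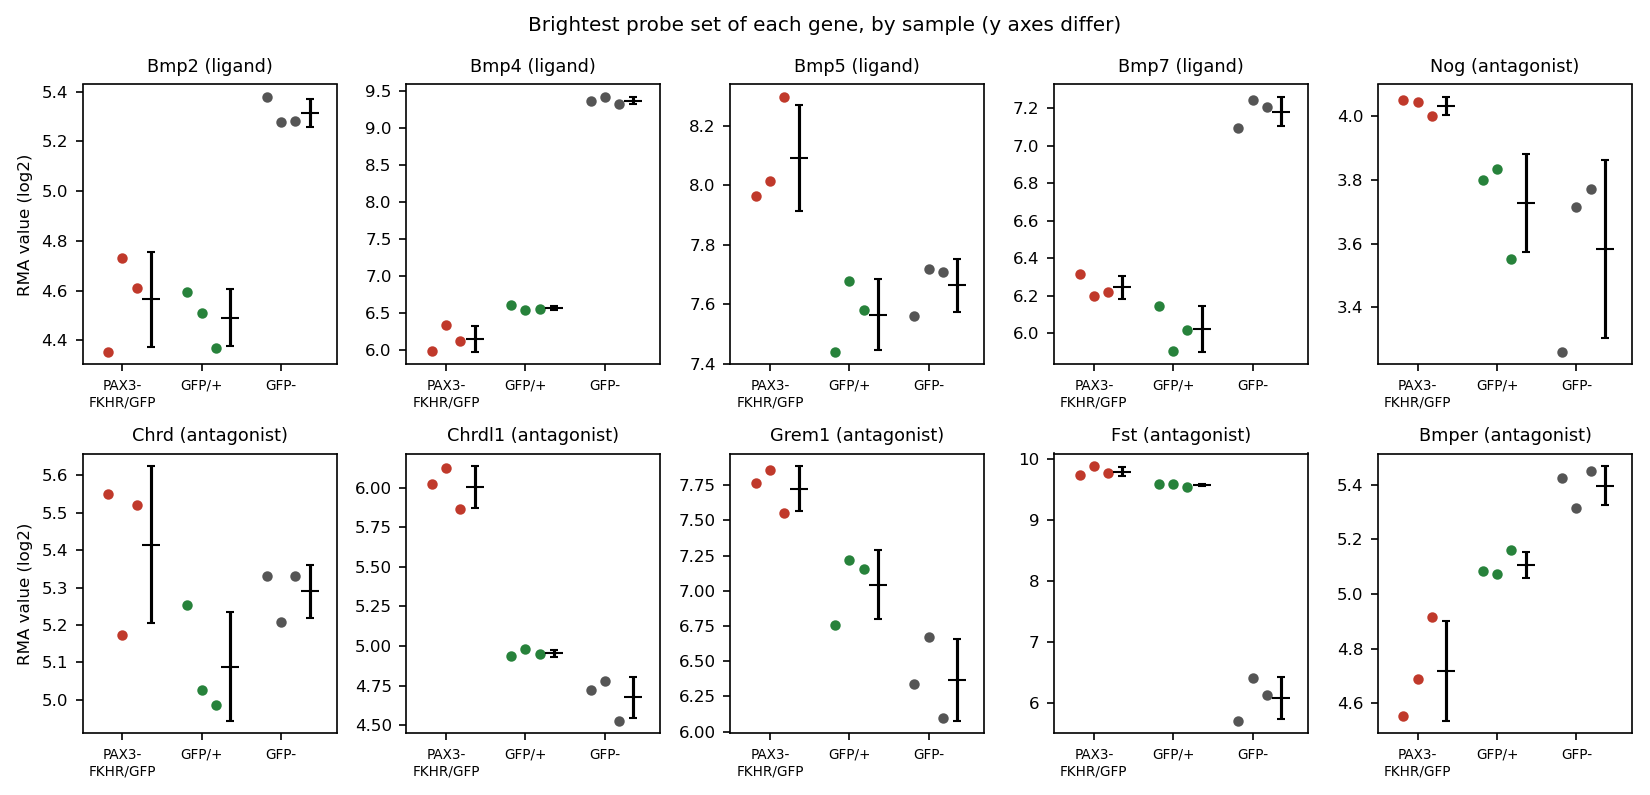
Log2 RMA value of the brightest probe set of each of the 10 genes in every array (points), for PAX3-FKHR/GFP (red), GFP/+ (green) and GFP- cells (grey), with the group mean and its SD (bars, n = 3). Bmp2, Bmp4 and Bmp7 are highest in GFP- cells, Fst is high in both GFP+ groups, and Chrdl1 and Grem1 are highest in PAX3-FKHR/GFP cells. The y axes differ between panels.

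Bmp4, a ligand that lateral mesoderm and dorsal ectoderm are known to make, showed the widest gap of the ligands. Its probe set 1422912_at read 5.999, 6.34 and 6.13 on the log2 scale in PAX3-FKHR/GFP cells, 6.61, 6.55 and 6.57 in GFP/+ cells, and 9.37, 9.41 and 9.32 in GFP- cells. The 3 groups did not overlap and stood in that order. Bmp4 in GFP/+ cells was at 14.4% of its level in GFP- cells (95% interval 13.2% to 15.8%), a log2 difference of -2.79 ± 0.06 (limma, adjusted p = 1.45e-09). In PAX3-FKHR/GFP cells it was at 10.8% of the GFP- level, a difference of -3.21 ± 0.09 (adjusted p = 1.55e-09). Between both GFP+ groups the difference was -0.42 ± 0.10 (adjusted p = 0.0724), which did not pass the threshold although each PAX3-FKHR/GFP array was under each GFP/+ array. Fewer cells that make a transcript and less of it per cell cannot be told apart in sorted bulk samples, for this gene or any other.

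Bmp7, a ligand of the BMP5 and BMP6 subgroup made by many epithelia, was lower in both GFP+ groups as well. Its brightest probe set, 1435479_at, read 6.32, 6.20 and 6.22 in PAX3-FKHR/GFP cells, 6.15, 5.91 and 6.02 in GFP/+ cells and 7.10, 7.24 and 7.20 in GFP- cells. Both GFP+ groups lay wholly under the GFP- arrays. The difference of GFP/+ from GFP- cells was -1.16 ± 0.08 (adjusted p = 8.79e-06), so that GFP/+ cells held 44.8% of the GFP- level, and that of PAX3-FKHR/GFP from GFP- cells was -0.94 ± 0.08 (adjusted p = 1.01e-05). A second probe set, 1418910_at, gave -1.64 ± 0.08 and -1.42 ± 0.09 in the same comparisons (adjusted p = 7.97e-07 and 1.31e-06). With PAX3-FKHR against GFP/+ neither was called, at differences of 0.22 ± 0.09 (95% interval 0.02 to 0.42) and 0.23 ± 0.10 (95% interval -0.00 to 0.45). The third probe set, 1432410_a_at, stayed between 3.46 and 3.86 on all arrays, with 4 arrays at exactly 3.69, and was called in no comparison.

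Bmp2, the closest relative of BMP4 among the ligands, was also lower in both GFP+ groups than in GFP- cells, on a smaller scale. Its probe set 1423635_at read 4.36, 4.73 and 4.61 in PAX3-FKHR/GFP cells, 4.59, 4.51 and 4.37 in GFP/+ cells and 5.38, 5.28 and 5.28 in GFP- cells. The GFP- arrays were all above the others, and both GFP+ groups overlapped. The means of PAX3-FKHR/GFP (4.565) and GFP/+ cells (4.492) lay under the median of all array values, 4.66. GFP/+ cells were at 56.6% of the GFP- level, a log2 difference of -0.82 ± 0.09 (adjusted p = 0.000165), and PAX3-FKHR/GFP cells differed from GFP- cells by -0.75 ± 0.11 (adjusted p = 0.000735). Between PAX3-FKHR/GFP and GFP/+ cells the difference was 0.07 ± 0.12 (95% interval -0.18 to 0.33, adjusted p = 0.909).

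Bmp5, a ligand known in the mouse from the short ear mutation of the skeleton, was the one ligand that rose with PAX3-FKHR. Its brightest probe set, 1455851_at, read 7.96, 8.02 and 8.30 in PAX3-FKHR/GFP cells, 7.44, 7.68 and 7.58 in GFP/+ cells and 7.56, 7.72 and 7.71 in GFP- cells. Every PAX3-FKHR/GFP array was above every other array, and GFP/+ and GFP- cells overlapped. The difference with PAX3-FKHR was 0.53 ± 0.10 against GFP/+ cells (1.44-fold, adjusted p = 0.0313). Without any 1 of PAX3-FKHR/GFP replicates 2 and 3 or GFP/+ replicates 1, 2 and 3 this call was lost, with adjusted p between 0.0464 and 0.167 and differences between 0.42 and 0.59 over the 6 omissions. By the local pooled error test it was 0.44 (adjusted p = 0.0899), also not called, and at a limit of 1.5-fold it would not be called either.

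The second probe set of Bmp5, 1421283_at, read 5.67, 5.89 and 5.96 in PAX3-FKHR/GFP cells, 5.20, 5.14 and 5.17 in GFP/+ cells and 5.15, 5.35 and 5.34 in GFP- cells. It showed the same order as the first, with PAX3-FKHR/GFP cells apart from the rest. Its difference against GFP/+ cells was 0.67 ± 0.10 (1.59-fold, adjusted p = 0.00480), a call that ended without PAX3-FKHR/GFP replicate 2 (adjusted p = 0.0530, in a range from 0.00510 over the 6 omissions). Against GFP- cells it was 0.56 ± 0.10 (adjusted p = 0.00426), and it came just under the fold limit when PAX3-FKHR/GFP replicate 3 or GFP- replicate 1 was left out (0.50 and 0.49), and its 1.47-fold would not reach a limit of 1.5-fold. The third, 1421282_at, was dimmer and read 4.77 to 4.90 in PAX3-FKHR/GFP cells, 4.35 to 4.60 in GFP/+ cells and 4.32 to 4.73 in GFP- cells, with a difference of 0.35 ± 0.10 against GFP/+ cells that was not called (adjusted p = 0.151). GFP/+ against GFP- cells gave differences of -0.10, -0.11 and -0.08 over the 3 probe sets, none of them called, with 95% intervals that together ran between -0.34 and 0.18.

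**Figure D2:**
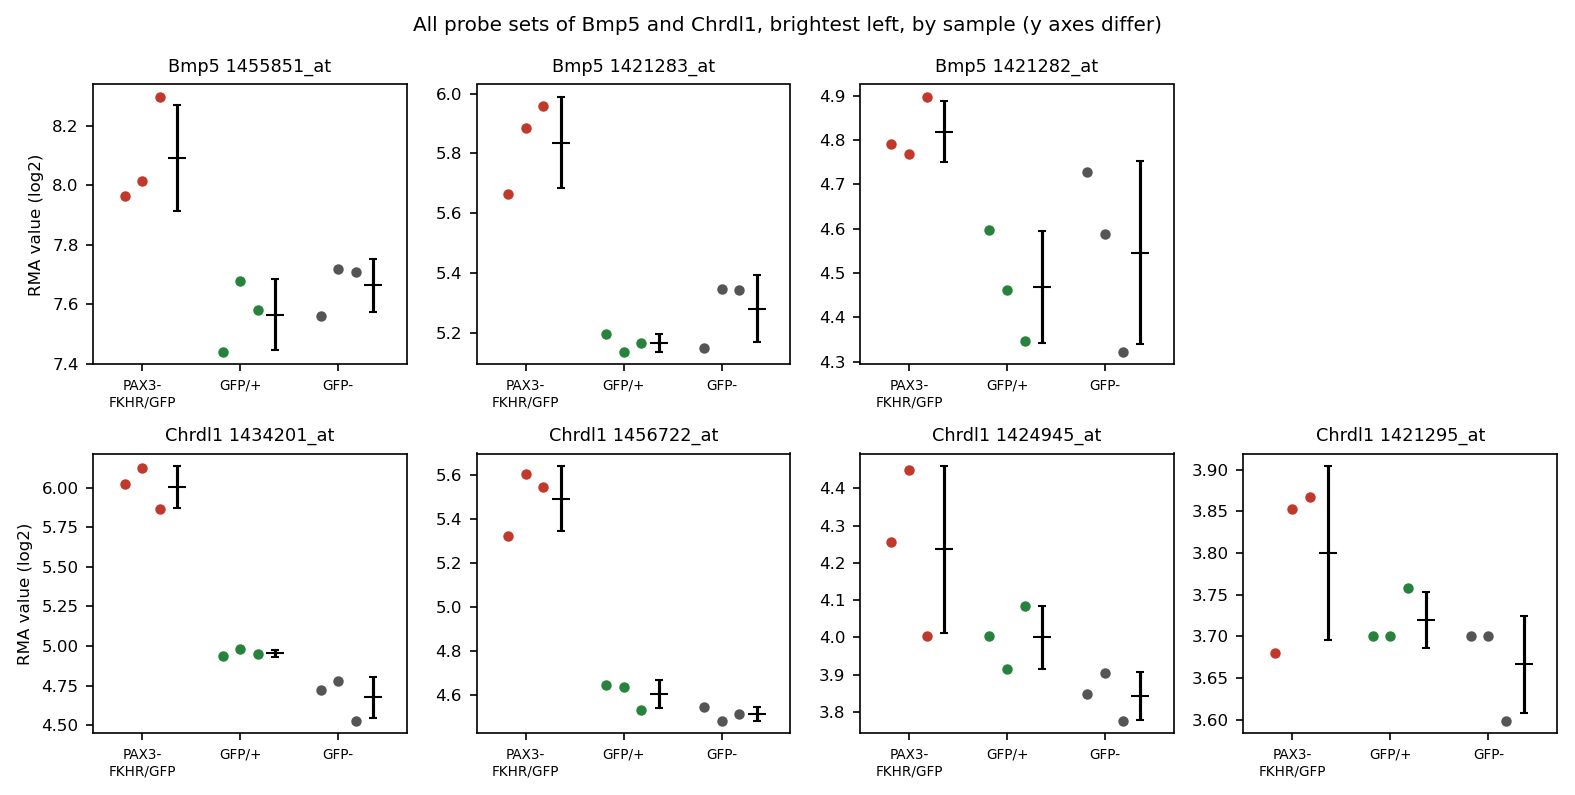
Log2 RMA value on every array (points) of all 3 probe sets of Bmp5 and all 4 of Chrdl1, brightest at the left, for PAX3-FKHR/GFP (red), GFP/+ (green) and GFP- cells (grey), with group mean and SD (bars, n = 3). The brighter 2 of each gene stand apart in PAX3-FKHR/GFP cells, and the dimmest Chrdl1 probe set spans only 3.60 to 3.87. The y axes differ between panels.

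The RefSeq promoter table (build GRCm38.p6) held 5 of the 10 genes, and 3 of them are printed because they cover both directions seen here: Bmp5 and Grem1, which were higher with PAX3-FKHR, and Bmp4, which was far lower in GFP+ cells. Each is the 250 bases before the annotated start, read 5′ to 3′ on the gene's strand. Capitals mark matches, on either strand, to ATTA, the core that homeodomains such as that of PAX3 bind, to GTCACG, a core of paired domain sites, and to GGCGCC, a GC-rich element bound by BMP SMADs. The Bmp5 stretch lies at chr9:75775115-75775364 on the plus strand, that of Grem1 at chr2:113758649-113758898 on the minus strand and that of Bmp4 at chr14:46390670-46390919 on the minus strand.
Bmp5: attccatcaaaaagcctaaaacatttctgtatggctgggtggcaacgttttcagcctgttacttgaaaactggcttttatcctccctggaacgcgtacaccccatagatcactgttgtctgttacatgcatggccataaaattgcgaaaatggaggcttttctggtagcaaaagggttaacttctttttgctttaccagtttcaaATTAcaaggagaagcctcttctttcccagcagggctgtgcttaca
Grem1: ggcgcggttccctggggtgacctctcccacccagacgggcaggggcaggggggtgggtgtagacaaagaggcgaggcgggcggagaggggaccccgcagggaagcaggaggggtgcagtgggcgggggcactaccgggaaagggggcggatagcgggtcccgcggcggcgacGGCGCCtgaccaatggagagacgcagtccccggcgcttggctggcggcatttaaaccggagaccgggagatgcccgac
Bmp4: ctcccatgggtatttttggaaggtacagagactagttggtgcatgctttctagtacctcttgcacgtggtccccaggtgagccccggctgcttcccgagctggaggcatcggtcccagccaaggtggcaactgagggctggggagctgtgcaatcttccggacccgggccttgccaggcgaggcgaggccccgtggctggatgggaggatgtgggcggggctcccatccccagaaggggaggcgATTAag
Bmp5 held 1 ATTA, its first base at position -45 from the start, and Bmp4 held 1 at position -6. Grem1 held 1 GGCGCC at position -78. None of the 3 held GTCACG in this window. Of the 32851 such promoters that RefSeq gave, 54.9% held ATTA, 6.93% held GTCACG and 9.59% held GGCGCC, so that an ATTA match is found in most promoters. The stretch of Bmp5 was 42.8% G and C, against 72% in Grem1 and 63.2% in Bmp4.

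Among the antagonists Fst set the GFP+ cells apart most. It encodes follistatin, which binds activins tightly and several BMPs more weakly. The probe set 1434458_at read 9.73, 9.88 and 9.76 in PAX3-FKHR/GFP cells, 9.58, 9.58 and 9.55 in GFP/+ cells and 5.72, 6.41 and 6.13 in GFP- cells. All arrays of GFP+ cells were more than 3 log2 units above all those of GFP- cells. The difference of GFP/+ from GFP- cells was 3.48 ± 0.14 (11.2-fold, adjusted p = 1.53e-07), and that of PAX3-FKHR/GFP from GFP- cells was 3.70 ± 0.14 (13.0-fold, adjusted p = 1.65e-08). A second probe set, 1421365_at, gave 3.26 ± 0.14 and 3.61 ± 0.14 (adjusted p = 2.39e-07 and 2.22e-08). Between the GFP+ groups the arrays of PAX3-FKHR/GFP were above those of GFP/+ in both probe sets, by 0.22 ± 0.08 (95% interval 0.05 to 0.39, adjusted p = 0.299) and 0.35 ± 0.09 (95% interval 0.16 to 0.54, adjusted p = 0.0920), and neither was called.

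Grem1 was the one gene that was higher in all 3 comparisons. It encodes gremlin 1, a member of the DAN family that binds BMP2, BMP4 and BMP7. Its probe set 1425357_a_at read 7.77, 7.86 and 7.55 in PAX3-FKHR/GFP cells, 6.76, 7.21 and 7.15 in GFP/+ cells and 6.34, 6.67 and 6.09 in GFP- cells. The 3 groups followed each other without overlap. With PAX3-FKHR the difference against GFP/+ cells was 0.68 ± 0.13 (1.61-fold, adjusted p = 0.0214). It was not called without any 1 of PAX3-FKHR/GFP replicates 1 and 2 or GFP/+ replicates 1, 2 and 3, with adjusted p between 0.0432 and 0.183 and differences between 0.54 and 0.77 over the 6 omissions. GFP/+ cells exceeded GFP- cells by 0.68 ± 0.15 (1.60-fold, adjusted p = 0.0229), a call lost without any 1 of GFP/+ replicates 2 and 3 or GFP- replicates 1 and 3 (adjusted p 0.0121 to 0.130). PAX3-FKHR/GFP cells exceeded GFP- cells by 1.36 ± 0.13 (2.56-fold, adjusted p = 4.37e-05), and this call held in each omission.

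Chrdl1 gave the largest rise with PAX3-FKHR among the 10 genes. It encodes chordin-like 1, a secreted protein with the cysteine-rich repeats by which chordin binds BMPs. The probe set 1434201_at read 6.03, 6.12 and 5.86 in PAX3-FKHR/GFP cells, 4.94, 4.98 and 4.95 in GFP/+ cells and 4.72, 4.78 and 4.53 in GFP- cells. GFP/+ and GFP- cells lay close together and PAX3-FKHR/GFP cells stood clear of them. The difference was 1.05 ± 0.09 against GFP/+ cells (2.07-fold, 95% interval 0.84 to 1.26, adjusted p = 0.000166) and 1.33 ± 0.10 against GFP- cells (2.51-fold, adjusted p = 4.86e-06). GFP/+ cells were above GFP- cells by 0.28 ± 0.09, without overlap, but this was not called (adjusted p = 0.0950).

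The second probe set of Chrdl1, 1456722_at, read 5.32, 5.60 and 5.54 in PAX3-FKHR/GFP cells, 4.65, 4.64 and 4.54 in GFP/+ cells and 4.55, 4.49 and 4.52 in GFP- cells. Its difference against GFP/+ cells was 0.88 ± 0.10 (1.85-fold, adjusted p = 0.000901), close to that of the first. Both calls held in each omission of 1 array and under every other setting tried for which the probe set was tested. The other 2 probe sets were dimmer: 1424945_at read 4.003 to 4.45 in PAX3-FKHR/GFP cells, 3.91 to 4.08 in GFP/+ cells and 3.78 to 3.90 in GFP- cells, and 1421295_at read 3.68 to 3.87, 3.70 to 3.76 and 3.60 to 3.70 in that order, with 4 arrays at exactly 3.70. With all arrays neither was called in any comparison, at differences of 0.24 ± 0.12 and 0.08 ± 0.09 between PAX3-FKHR/GFP and GFP/+ cells. Without PAX3-FKHR/GFP replicate 3 the brighter of them, 1424945_at, passed against GFP- cells (0.51, adjusted p = 0.0147, in a range from 0.0147 to 0.212 over the 6 omissions). So 2 of the 4 probe sets of Chrdl1 rose, and the median of all array values, 4.66, lay above every value of the other 2.

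Nog, which encodes noggin, gave low values in every group, all under the median of the arrays. Its probe set 1422300_at read 4.05, 4.05 and 4.001 in PAX3-FKHR/GFP cells, 3.80, 3.83 and 3.55 in GFP/+ cells and 3.26, 3.72 and 3.77 in GFP- cells. The PAX3-FKHR/GFP arrays were the highest, while GFP/+ and GFP- cells overlapped. No comparison was called: the differences were 0.30 ± 0.10 with PAX3-FKHR against GFP/+ (95% interval 0.09 to 0.52, adjusted p = 0.230), 0.15 ± 0.14 for GFP/+ against GFP- cells (adjusted p = 0.626) and 0.45 ± 0.12 for PAX3-FKHR/GFP against GFP- cells (adjusted p = 0.0483, under the fold limit). Without GFP- replicate 3 the last of these passed both limits, at 0.54 (adjusted p = 0.0475, in a range from 0.0475 to 0.167 over the 6 omissions).

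Chrd, which encodes chordin, differed little between groups. Its probe set 1417304_at read 5.55, 5.17 and 5.52 in PAX3-FKHR/GFP cells, 5.25, 5.03 and 4.99 in GFP/+ cells and 5.33, 5.21 and 5.33 in GFP- cells. Each pair of groups overlapped. The differences were 0.33 ± 0.12 with PAX3-FKHR against GFP/+ (95% interval 0.05 to 0.60, adjusted p = 0.360), -0.20 ± 0.09 for GFP/+ against GFP- cells (95% interval -0.41 to 0.01, adjusted p = 0.276) and 0.12 ± 0.11 for PAX3-FKHR/GFP against GFP- cells (95% interval -0.12 to 0.37).

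Bmper, whose product BMPER (crossveinless-2) binds BMPs and can either block or aid them, ran opposite to Grem1. Its probe set 1429273_at read 4.55, 4.69 and 4.92 in PAX3-FKHR/GFP cells, 5.09, 5.07 and 5.16 in GFP/+ cells and 5.42, 5.32 and 5.45 in GFP- cells. The 3 groups again did not overlap. PAX3-FKHR/GFP cells were lower than GFP- cells by a difference of -0.68 ± 0.11 (62.6% of the GFP- level, adjusted p = 0.00140). The steps between neighbours were not called, at -0.39 ± 0.11 for PAX3-FKHR/GFP against GFP/+ (adjusted p = 0.146) and -0.29 ± 0.08 for GFP/+ against GFP- cells (adjusted p = 0.0502).

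**Figure D3:**
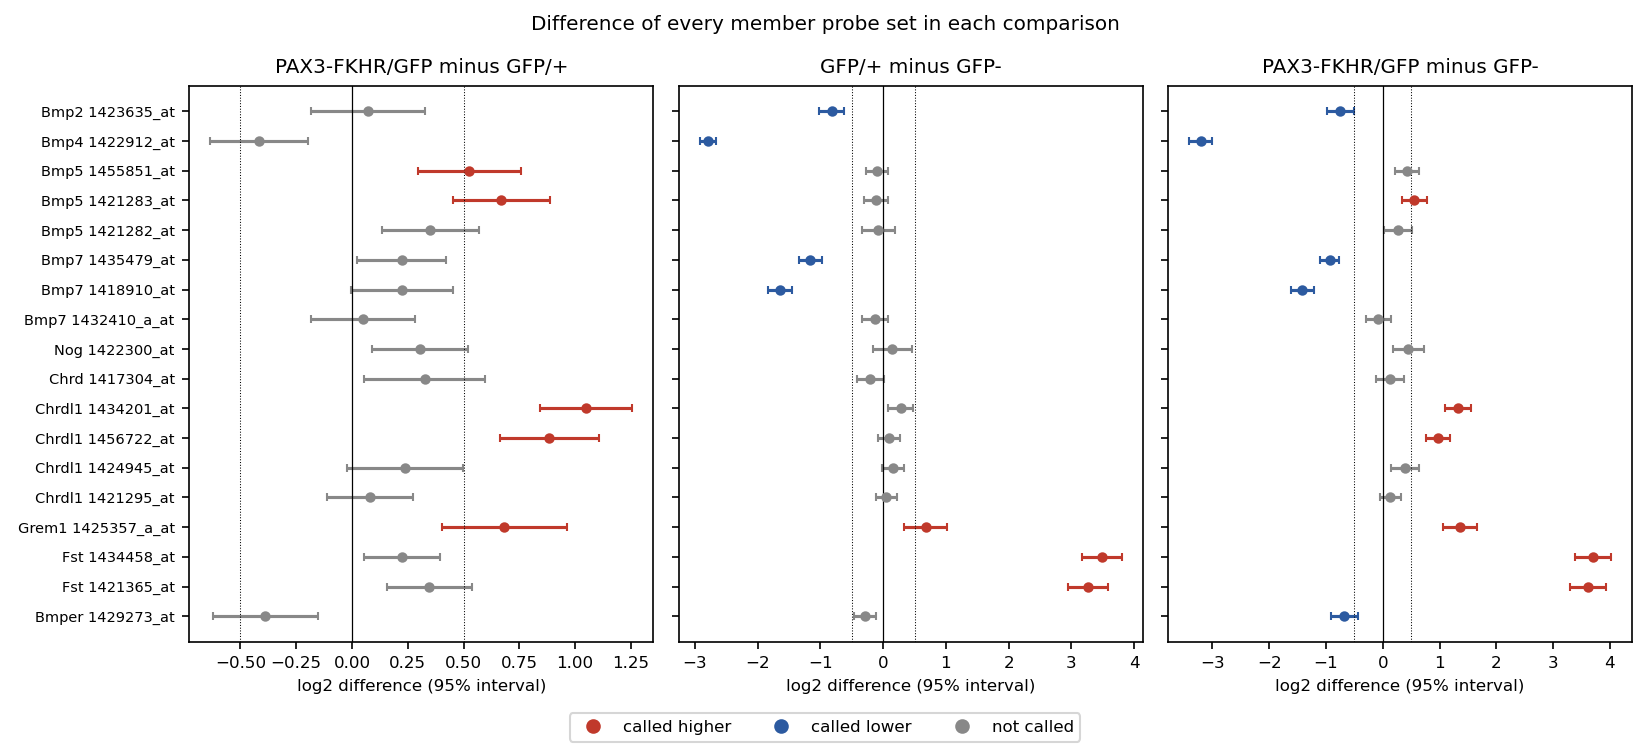
Log2 difference (points) with its 95% interval (bars) of all 18 probe sets in PAX3-FKHR/GFP minus GFP/+, GFP/+ minus GFP- and PAX3-FKHR/GFP minus GFP- cells, with calls higher in red, lower in blue and none in grey, and dotted lines at the fold limit of 0.5. In GFP/+ minus GFP- cells Fst lies beyond 3 on one side and Bmp4 near -2.79 on the other. The x axes differ between panels.

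Markers of other cell types moved with these groups. For each marker list the RMA values were taken off the log2 scale and summed per array. The 9 lateral and intermediate mesoderm markers summed to between 208 and 215 in PAX3-FKHR/GFP, 212 and 219 in GFP/+ and 1248 and 1358 in GFP- cells, and 6 of the 9 were lower in GFP/+ than in GFP- cells. The 9 markers of surface ectoderm and endoderm epithelium summed to between 543 and 606 in PAX3-FKHR/GFP, 543 and 558 in GFP/+ and 5776 and 6007 in GFP- cells, with 8 of 9 lower in GFP/+ cells. The 5 primitive erythroid markers were all lower, at 1926 to 2239.8 in PAX3-FKHR/GFP, 1379.7 to 1449.9 in GFP/+ and 36169 to 36418 in GFP- cells. In endothelial markers 5 of 7 were lower in GFP/+ cells, with sums of 454 to 485 in PAX3-FKHR/GFP, 470.2 to 508 in GFP/+ and 721 to 780.1 in GFP- cells. Of the 8 neural tube markers 5 were lower in GFP/+ cells, with sums of 908 to 1072 in PAX3-FKHR/GFP, 982 to 1039 in GFP/+ and 1728 to 1753 in GFP- cells. Set against GFP- cells, these lists moved the same way as Bmp2, Bmp4 and Bmp7 in both GFP+ groups, and their part in those differences was not tested.

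Between GFP/+ and GFP- cells other lists moved the way of Fst and Grem1. The 10 dermomyotome markers summed to between 5202 and 6383 in PAX3-FKHR/GFP, 4706 and 4826 in GFP/+ and 550.3 and 597 in GFP- cells. Neural crest markers were higher in 6 of 7 in GFP/+ cells, with sums of 3299.6 to 3979 in PAX3-FKHR/GFP, 2853 to 2980.1 in GFP/+ and 1103 to 1114 in GFP- cells. Sox10, a defining neural crest factor, averaged 9.62 in PAX3-FKHR/GFP, 9.48 in GFP/+ and 6.05 in GFP- cells on the log2 scale. Of the 6 sclerotome markers 4 were higher in GFP/+ cells, with sums of 1507 to 1789.8 in PAX3-FKHR/GFP, 1966 to 2083 in GFP/+ and 341 to 386 in GFP- cells. Between PAX3-FKHR/GFP and GFP/+ cells 1 of 7 neural crest markers was higher (Tfap2b, named after its value was seen) and 0 were lower by limma (4 and 0 at an unadjusted p under 0.05, 1 and 0 by the local pooled error test). Of 10 dermomyotome markers 4 were higher (Pax7, Lbx1, Met and Tcf15) and 2 lower (Pax3 and Sim1). Of 7 myotome markers 1 was higher (Myf5) and 4 lower (Myog, Myf6, Des and Actc1), all named after their values were seen. Pax3 has no intact allele in the fusion embryos, and the study names Pax7, Lbx1, Met, Tcf15 and Myf5 among genes raised by the fusion. It also names Tfap2b and Uncx among those raised, and Sim1, Myog, Myf6 and Foxc2 among those lowered. Changes per cell and changes in cell numbers cannot be told apart in the counts of any of these lists, and neither was tested. The 7 myotome markers summed to between 1481 and 1715 in PAX3-FKHR/GFP, 2227 and 2445 in GFP/+ and 1139 and 1228 in GFP- cells. In the same comparison 1 sclerotome marker was higher (Uncx) and 2 lower (Pax1 and Foxc2), 2 neural tube markers were lower (Pax6 and Neurog2) and 1 erythroid marker was higher (Hbb-y, 1.57-fold, adjusted p = 0.00410), all named after their values were seen. For the neural crest, dermomyotome, myotome, sclerotome and erythroid lists the sums of these groups lay apart on every array. RMA values have a floor above 0, so no marker read 0, and the part of these markers in the differences of Bmp5, Chrdl1, Grem1 and Fst was not tested.

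The rest of the BMP pathway was read from the brightest probe set of each gene. With PAX3-FKHR against GFP/+ cells 0 of 7 receptors were called in either direction by limma (0 at an unadjusted p under 0.05 and 0 by the local pooled error test). Bmpr1a, the main type I receptor of BMP2 and BMP4, averaged 10.25 in PAX3-FKHR/GFP, 10.35 in GFP/+ and 10.28 in GFP- cells, and Bmpr2, the type II receptor, 9.96, 9.93 and 10.19 in the same order. Of 6 SMAD genes 0 were called (1 higher at an unadjusted p under 0.05, 0 by the local pooled error test), and Smad7, which inhibits the pathway inside the cell, differed by 0.37 ± 0.08 (adjusted p = 0.0448), under the fold limit. Of 11 other BMP and GDF ligands 0 were called (0 at an unadjusted p under 0.05, 0 by the local pooled error test).

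Among 19 other extracellular modulators 1 was higher and 1 lower with PAX3-FKHR. Rgmb, a membrane-bound BMP co-receptor, differed by 0.59 ± 0.11 (adjusted p = 0.0216), a call lost without any 1 of PAX3-FKHR/GFP replicates 2 and 3 or GFP/+ replicates 2 and 3 (adjusted p 0.0112 to 0.175). Hjv, a co-receptor of the same family known from skeletal muscle, differed by -0.86 ± 0.14 (adjusted p = 0.00963). All 3 PAX3-FKHR/GFP arrays held the same value for Hjv, 5.34, against 6.39, 6.40 and 5.83 in GFP/+ cells, and the call held only without GFP/+ replicate 3 (adjusted p 0.00167 to 0.0896 over the 6 omissions). Of 6 BMP response genes 2 were higher with PAX3-FKHR: Id4, by 1.26 ± 0.12 (2.39-fold, adjusted p = 0.000256), and Id1, by 0.65 ± 0.10 (1.57-fold, adjusted p = 0.00499), both coding for inhibitors of basic helix-loop-helix factors. Leaving out replicate 2 of either PAX3-FKHR/GFP or GFP/+ ended the call of Id1 (adjusted p 0.00968 to 0.0626 over the 6 omissions). The other 4 response genes were not called. At an unadjusted p under 0.05, 5 of the 6 were higher and 0 lower (2 and 0 by the local pooled error test). The share of all genes at that limit was not counted. The median log2 difference was 0.39 over the 6 and -0.00 over all genes.

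Between GFP/+ and GFP- cells 0 of 7 receptors were called by limma (2 lower at an unadjusted p under 0.05, 0 by the local pooled error test), and 0 of 11 other ligands (1 lower at an unadjusted p under 0.05, 0 by the local pooled error test). The inhibitory SMAD genes were lower, Smad6 by a difference of -1.15 ± 0.07 (adjusted p = 2.98e-06) and Smad7 by -0.75 ± 0.08 (adjusted p = 0.000267), while the other 4 SMAD genes were not called. Of 6 response genes 3 were lower: Msx2 at -2.15 ± 0.07, Msx1 at -1.96 ± 0.06 and Id4 at -1.49 ± 0.06 (adjusted p = 3.84e-08, 2.88e-08 and 1.03e-07). Of the 19 modulators 3 were lower, Bambi (a decoy receptor) at -1.76 ± 0.06, Sostdc1 (a secreted antagonist) at -1.66 ± 0.10 and Kcp (a chordin-like protein known to enhance BMP7) at -1.62 ± 0.07, and 2 were higher, Hjv at 1.74 ± 0.15 and Rgmb at 0.91 ± 0.09. The median log2 difference was -0.89 over the 6 response genes and 0.01 over all genes.

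**Figure D4:**
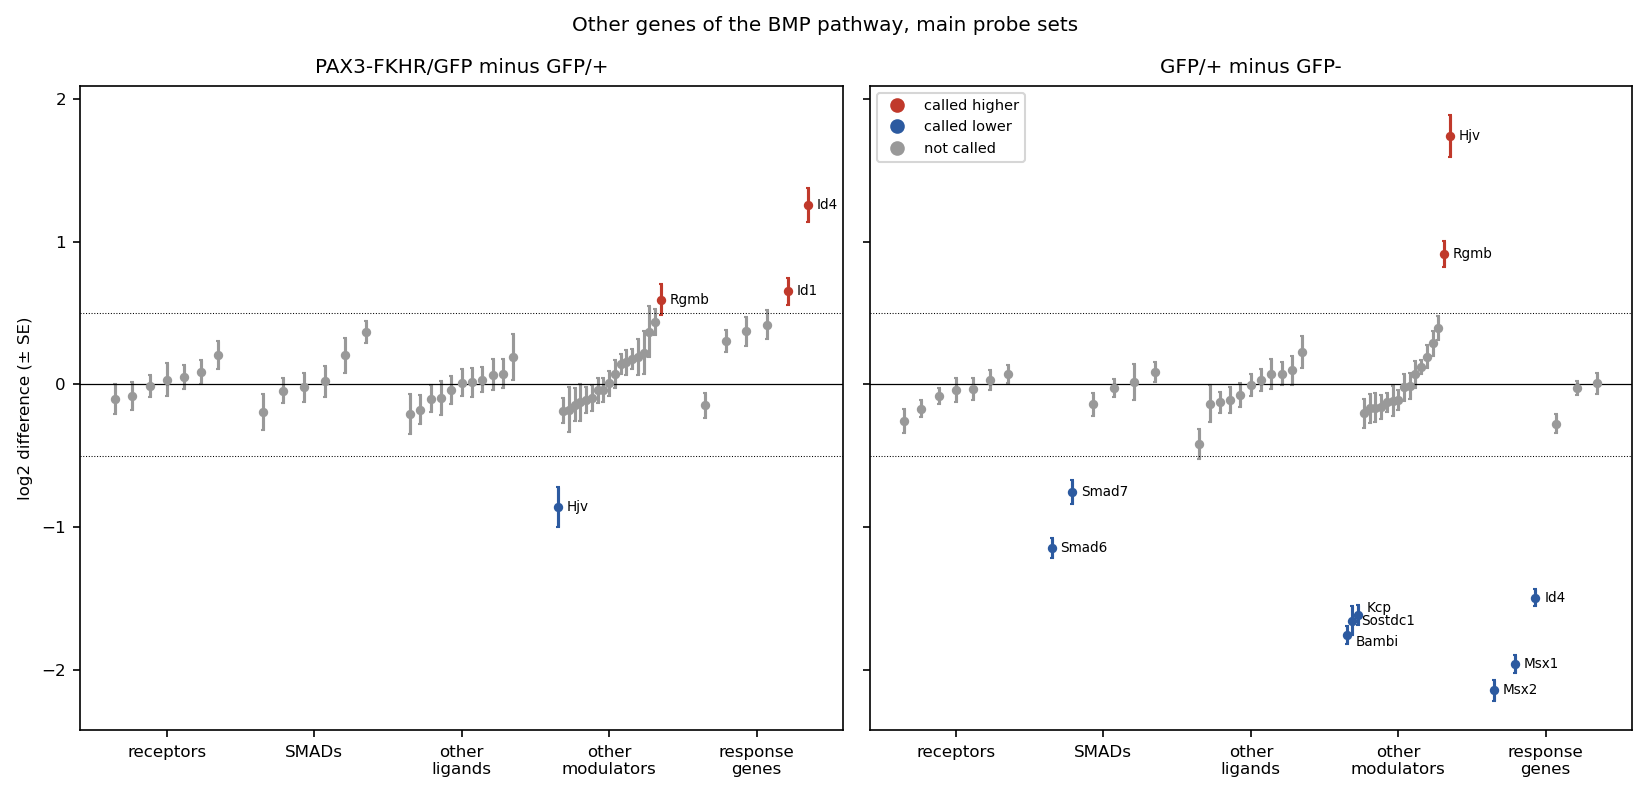
Log2 difference (points, with standard error) of each further BMP pathway gene by its brightest probe set, grouped by role, in PAX3-FKHR/GFP minus GFP/+ (left) and GFP/+ minus GFP- cells (right). Called genes are named, higher in red and lower in blue, with dotted lines at the fold limit of 0.5. Receptors and other ligands lie between the limits in both panels, and Msx1, Msx2 and Id4 lie under -1 in the right panel.

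Other genes traced the same profiles over the 9 arrays. Likeness was the Pearson correlation of log2 values with 18183 other genes. It is given as a description only, because the arrays fall into 3 groups and any gene with the same group means scores high. Closest to Bmp4 were Arhgef5 and Dll3 (both r = 0.998) and Vnn1 (0.997), with 867 genes over 0.9 in all. Closest to Fst were Meox2 (0.994), a homeobox gene of the somite, Plscr1 (0.992) and Sox10 (0.992), with 251 over 0.9. Chrdl1 was closest to Wscd1 (0.989), Nav3 (0.987) and Tcerg1l (0.984), with 157 over 0.9. Bmp5 was closest to Icmt (0.968), Ppp1r17 (0.965) and Slc37a3 (0.965), and Grem1 to Apod (0.980), Prodh (0.969) and Bdnf (0.965).

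The remaining profiles were those of Bmp2, nearest to Pcdh12 (0.989), Nid1 (0.989) and Fryl (0.986), of Bmp7, nearest to Sp6 (0.995), Cracdl (0.992) and Kit (0.990), and of Bmper, nearest to Rasgrp3 (0.995), Ero1a (0.990) and Pdzrn3 (0.984). Nog and Chrd had few close matches, with 6 and 4 genes over 0.9. The nearest to Nog were Nle1 (0.924), Ptcd1 (0.916) and Lypd8 (0.911), and the nearest to Chrd were Chst10 (0.961), Anxa9 (0.918) and Ebp (0.917).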

How the data were processed

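RNA of sorted cells was amplified from its 3′ end in a pair of cycles and hybridized to 9 Affymetrix mouse genome arrays. The authors deposited log2 expression values that Robust Multichip Analysis (RMA) had produced. RMA corrects background, normalizes by quantiles and merges the probes of a probe set. A change of total RNA common to most transcripts is hidden by this, and low values are compressed. The version of RMA is not given in the sources used here, nor is the set of arrays normalized jointly. The study left out probe sets called absent, and those absence calls were not used here. The number of arrays limits the precision.

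The table held 45101 probe sets, of which 64 were controls and 45037 were tested. A single symbol was annotated to 34945 of these and more than 1 to 932, while 9160 stayed unnamed here. A gene was represented by its brightest probe set over all arrays where 1 value was needed, and every probe set of the BMP ligands and antagonists was reported. The 3 comparisons were each fitted on their 6 arrays with limma 3.58.1 in R 4.3.3 (lmFit, eBayes with an intensity trend), by two-sided tests adjusted after Benjamini and Hochberg over the 45037 probe sets. The log2 limit of 0.5 is the study's, which gives it beside a fold of 1.5, although it equals 1.41-fold. A limit of 1.5-fold was added as an alternative after the data were seen. The test used in the study, of local pooled error, was written anew and run as an alternative, beside other fits, normalizations and filters and the omission of each array. The script was tested on simulated data. Samples were grouped by the labels. The sources conflict on the genotype of the GFP- cells, which the study gives as GFP/+ in its text and as wild type in its list of hybridized groups. For the pathway lists and for likeness, up to the 3 largest called genes per direction and the 3 most alike genes were named.

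The genes, the pathway lists and the marker lists were chosen with earlier results of these data known, and the study itself names Bmp5, Chrdl1, Fst and Grem1 among genes it found changed in somites or limbs. A few genes of the pathway and marker lists are not reported here, and the counts cover the others. Promoter sequences came from RefSeq (GRCm38.p6).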

Additional observations from a re-analysis of the deposited data

How the results depend on the processing

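Every call of the 18 probe sets kept its side of the threshold when all 9 arrays shared 1 fit, without an intensity trend, with arrays centred on their medians and, for the probe sets that remained, with a filter on dim probe sets. The exceptions under other settings were few. Bmp5 (1455851_at) against GFP/+ was not called by the local pooled error test (0.44) or after a second quantile normalization (0.49). Without the fold limit Bmp5 (1455851_at) and Nog joined the calls of PAX3-FKHR/GFP against GFP- cells, and among pathway genes Smad7 and Sostdc1 joined those of PAX3-FKHR/GFP against GFP/+, and Id1, Nbl1 and Bmp6 those of GFP/+ against GFP- cells. At a limit of 1.5-fold, added after the data were seen, 4 of 18 probe sets were higher in PAX3-FKHR/GFP cells against GFP/+ and 5 against GFP- cells. Each of these counts lost 1 probe set of Bmp5, and the other counts over the 18 stood as before. Of all 45037 probe sets that limit left 468 calls for PAX3-FKHR/GFP against GFP/+, 1690 for GFP/+ against GFP- and 1944 for PAX3-FKHR/GFP against GFP- cells. No direction of a called value turned. Leaving out 1 array at a time left 2 to 4 of the 18 probe sets called higher in PAX3-FKHR/GFP cells against GFP/+ cells, where all arrays gave 5: 2 without PAX3-FKHR/GFP replicate 2 and 3 without any 1 GFP/+ replicate. Over all probe sets that comparison gave 358 calls without PAX3-FKHR/GFP replicate 2, 383 without GFP/+ replicate 2 and 386 without GFP/+ replicate 3, against 611, and the other omissions 472 to 578. Without the fold limit there were 3947 calls between GFP/+ and GFP- cells, against 2095, and 4029 between PAX3-FKHR/GFP and GFP- cells, against 2411. Means over the probe sets of a gene changed no call of its brightest one. The alternatives for pathway genes were added after their calls were seen.

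Deviations of same-numbered arrays from their group means correlated between -0.10 and 0.10, and between 0.01 and 0.09 for GFP/+ with GFP- cells. Whether arrays of the same number came from the same sort is not given in the sources used here. Such correlations cannot settle it, so the samples were taken as unpaired. With the replicate number as a block the counts were 5 higher and 0 lower for PAX3-FKHR/GFP against GFP/+, 3 and 4 for GFP/+ against GFP-, and 6 and 5 for PAX3-FKHR/GFP against GFP- cells, and no call of the 18 changed. Of all 45037 probe sets the block gave 603, 2122 and 2451 calls in that order, against 611, 2095 and 2411 without it. Whether low values hid a difference in dim probe sets, such as those of Nog and the dimmer ones of Bmp7 and Chrdl1, was not tested.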
